A study of Mus musculus with 4 samples.

Results

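The pigment cell of the skin is read here through 10 genes, those of the pigment enzymes Tyr, Tyrp1 and Dct, of the melanosome proteins Pmel and Mlana, and of the lineage regulators Mitf, Sox10, Kit, Ednrb and Mc1r. They, and the lists of other genes used below, were chosen by name with earlier results of these data known. For the 10 genes, every probe set that the annotation of the array gives to them alone was taken. This gave 21 probe sets of 45101, and 10 genes of the 18193 that had a probe set with a single gene symbol. Dermal cells were profiled in 4 conditions, all from female C57BL/6 mice, whose age the sample labels give as 10 weeks and the series design as 8 to 12 weeks. The dermis was dissociated with enzymes, and RNA was taken from the suspension of dermal cells. The PP2 array held abdominal (ventral) dermis of 15 dpc mice injected with PP2, an inhibitor of Src family kinases. The abdominal array held abdominal dermis of 15 dpc mice injected with the vehicle DMSO. The dorsal array held dermis from the back of 15 dpc mice injected with DMSO, and the virgin array abdominal dermis of virgin mice injected with DMSO. All mice, virgins included, received intradermal injections, 2 a day for 4 days, which began at 12 dpc in the pregnant mice. The stage is 15 dpc by the titles of the samples, as written here, and 16 dpc by their descriptions. Each condition had 1 array, so that no difference has a replicate error or a p-value. The sources used here do not say how many mice an array stands for.

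Melanocytes descend from the neural crest. In the skin of the mouse body they reside mainly in the hair follicles, where they supply pigment to the shaft while the hair grows. Tyr encodes tyrosinase, the enzyme that starts melanin synthesis from tyrosine, and Tyrp1 and Dct encode its relatives, which act later in the pathway of the brown to black pigment. Pmel forms the fibrils on which melanin is laid down in the melanosome, and Mlana is a small melanosome protein. Mitf is the transcription factor that drives the pigment genes, and Sox10 acts upstream of it. Kit, Ednrb and Mc1r are the receptors for stem cell factor, for endothelins and for melanocortin. Several of the regulators are also used outside melanocytes, Sox10 in Schwann cells, Kit and Mitf in mast cells, and Ednrb in endothelial and glial cells.

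The start regions of the 3 enzyme genes are printed because they carry one sequence in common, while the signals of the 3 genes took different courses over the arrays. They are the 250 bases before the start in the RefSeq table of GRCm38.p6, 5′ to 3′ along the strand of the gene. Capitals mark GTCATGTGCT, the longest run shared by the 3 windows that holds CATGTG, the core of the M-box, which is the element bound by Mitf in pigment gene promoters.
Tyr (chr7:87493513-87493762, minus strand): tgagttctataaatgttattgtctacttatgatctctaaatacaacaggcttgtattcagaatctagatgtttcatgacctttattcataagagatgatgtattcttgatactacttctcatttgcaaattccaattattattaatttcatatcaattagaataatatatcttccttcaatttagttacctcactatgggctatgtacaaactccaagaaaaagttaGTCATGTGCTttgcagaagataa
Tyrp1 (chr4:80833963-80834212, plus strand): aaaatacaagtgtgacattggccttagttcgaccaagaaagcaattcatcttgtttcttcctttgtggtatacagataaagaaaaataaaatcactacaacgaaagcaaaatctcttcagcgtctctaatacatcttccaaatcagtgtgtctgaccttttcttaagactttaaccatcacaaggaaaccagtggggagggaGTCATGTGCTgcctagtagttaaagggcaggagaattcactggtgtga
Dct (chr14:118052247-118052496, minus strand): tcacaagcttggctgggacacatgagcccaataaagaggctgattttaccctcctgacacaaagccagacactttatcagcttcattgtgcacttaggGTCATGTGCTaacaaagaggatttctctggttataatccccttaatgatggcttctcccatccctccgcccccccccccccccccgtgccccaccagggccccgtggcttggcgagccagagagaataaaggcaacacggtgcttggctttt
The stretch lay at bases 23 to 14 before the start in Tyr, 48 to 39 in Tyrp1 and 152 to 143 in Dct. On either strand it was found in 51 of all 32851 promoter windows of this length (0.155%), and the core CATGTG, which lies within it, in 4025 (12.3%). The table held 10 promoters of 7 members, with none for Pmel, Mlana and Sox10. Of the regulators, Mc1r carried the core without these flanking bases, at bases 51 to 46 and, on the other strand, at 62 to 57, and the windows of Mitf, Kit and Ednrb held neither the core nor the longer stretch. A second element, ACAAAG, a form of the Sox binding sequence, was searched on both strands and occurred in 16.5% of all windows. It was present in Dct at bases 192 to 187 and 141 to 136, and in Tyrp1 on the other strand at bases 190 to 185. These are matches of letters, and binding was not measured.

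The values are MAS5 signals, intensities on a linear scale in arbitrary units that can be compared between arrays for one probe set but not between probe sets. Each signal has a detection call. Present calls covered 58.4% to 59.7% of all probe sets on the 4 arrays. A gene is represented below by its brightest probe set over the 4 arrays, and the others are given beside it. It is said to be over 2-fold higher on an array when the ratio of signals was above 2 and the brighter of both signals was called present. Where the probe set was not called present on the dimmer array, the fold is a bound, written with the words at least. It was taken against the higher of the signal itself and the dimmest signal called present on that array. In these bulk samples fewer cells of a type and less RNA per cell cannot be told apart. All 8 fibroblast markers examined were present on all 4 arrays. Epidermal markers were present as well, 11 of 11 on the PP2 array, 10 on the abdominal array, 11 on the dorsal array and 9 on the virgin array.

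Detection of the melanocyte genes was uneven. Of the 21 probe sets, 11 were present on all 4 arrays, 6 on some and 4 on none. By the representative probe set, 5 genes were present on all 4 arrays (Dct, Mitf, Sox10, Ednrb and Mc1r), and Mlana was present on 0. Tyrp1 had a further pair of probe sets that were present throughout. Pmel was present on the abdominal array only, and Tyr, by the same criterion, on the PP2 and abdominal arrays. The defining pigment cell markers Tyr, Pmel and Mlana thus lay at or near the limit of detection on most arrays, and the representative probe set of Tyrp1 was not called present on the virgin array, at a signal of 439. The representative probe set was brightest on the abdominal array for 4 genes (Tyr, Dct, Pmel and Mlana), on the dorsal array for 4 (Tyrp1, Mitf, Sox10 and Mc1r) and on the virgin array for 2 (Kit and Ednrb).

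**Figure D1:**
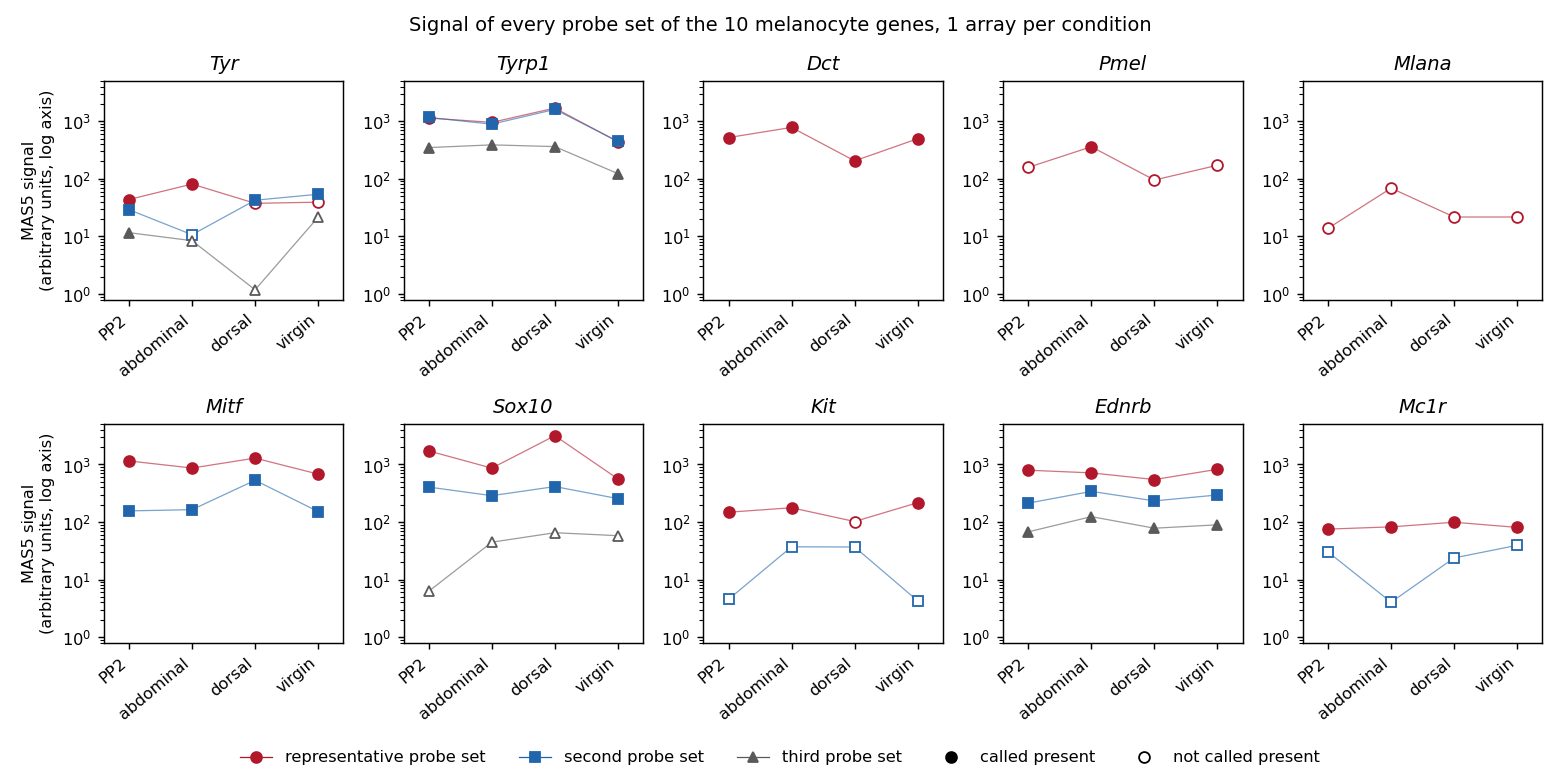
MAS5 signal (arbitrary units, log axis) of all 21 probe sets of the 10 melanocyte genes on the PP2, abdominal, dorsal and virgin arrays, 1 array per condition. Filled symbols were called present and open symbols were not. Dct and Pmel peak on the abdominal array at 782 and 361, and Sox10 and Tyrp1 on the dorsal array at 3162 and 1695.

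The pigment enzymes did not share one profile. Dct, the gene of dopachrome tautomerase, stood at 521 on the PP2 array, 782 on the abdominal array, 205 on the dorsal array and 498 on the virgin array, all called present. It was thus highest in the abdominal dermis of pregnant mice and lowest in their dorsal dermis, with the PP2 and virgin arrays close to each other in between. The abdominal array exceeded the virgin array by 1.57-fold and the dorsal array by 3.81-fold. The PP2 array was lower than the abdominal array, with a log2 ratio of -0.59. Dct had this one probe set (1418028_at).

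Tyrp1, by its representative probe set (1439409_x_at), had signals of 1140.0, 957, 1695 and 439 on the PP2, abdominal, dorsal and virgin arrays, the last not called present. It was highest on the dorsal array, where Dct was lowest, and all 3 arrays of pregnant mice lay above the virgin array. The second probe set (1415861_at) followed it closely, at 1165, 890.4, 1606 and 449, all present. The third (1415862_at), at 349, 389, 363 and 123, differed little among the arrays of pregnant mice. On the abdominal array Tyrp1 was higher than on the virgin array by at least 2.18-fold, 1.98-fold and 3.16-fold by the 3 probe sets, and on the PP2 array by at least 2.59-fold, 2.60-fold and 2.84-fold. Set against the dorsal array, the abdominal array was 1.77-fold and 1.80-fold lower by the brighter pair and 1.07-fold higher by the third.

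Tyr was dim on every array. Its representative probe set (1417717_a_at) had signals of 43.7, 81.1, 37.5 and 39.3 on the PP2, abdominal, dorsal and virgin arrays and was present on the PP2 and abdominal arrays only. The abdominal array exceeded the virgin array by at least 2.06-fold and the dorsal array by at least 2.16-fold, and the PP2 array was 1.85-fold lower than the abdominal array. The second probe set (1448821_at) ran the other way. Its signals were 29.1, 10.7, 42.5 and 53.9, with no present call on the abdominal array alone, so that the abdominal array was at least 5.02-fold lower than the virgin array and at least 3.96-fold lower than the dorsal array. The PP2 array exceeded the abdominal array by at least 2.71-fold. The third (1456095_at) had a present call on the PP2 array only, at 11.6, and 8.42, 1.18 and 21.6 on the abdominal, dorsal and virgin arrays. No direction for Tyr is therefore shared by its probe sets.

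The melanosome proteins were detected on 1 array at most. Pmel (1422523_at) had signals of 158, 361, 95.3 and 172 on the PP2, abdominal, dorsal and virgin arrays, and was called present at 361 alone. The abdominal array stood above the other 3, and the bounds were at least 2.10-fold over the virgin array, at least 3.79-fold over the dorsal array, and at least 2.28-fold lower on the PP2 than on the abdominal array. Mlana (1430635_at), absent throughout, had signals of 13.8, 68.8, 21.7 and 21.7, for which no fold is given. Each of these genes had a single probe set.

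Among the regulators, by representative probe sets, Sox10 (1451689_a_at) varied most. Its signals were 1719.9 on the PP2 array, 864 on the abdominal array, 3162 on the dorsal array and 561 on the virgin array, all present. The dorsal array was the highest and the virgin array the lowest, and the abdominal array was 3.66-fold lower than the dorsal array and 1.54-fold higher than the virgin array. The PP2 array was 1.99-fold higher than the abdominal array, just short of 2-fold, and 3.06-fold higher than the virgin array. The second probe set (1424985_a_at) gave the same order with smaller steps, at 405, 287, 413 and 255 on the PP2, abdominal, dorsal and virgin arrays, so that the PP2 array was 1.41-fold higher than the abdominal array and the abdominal array 1.44-fold lower than the dorsal array. The third was absent on all 4 arrays.

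Mitf was measured by a pair of probe sets that were present on all arrays. The brighter (1455214_at) had signals of 1151, 867, 1289 and 679.8 on the PP2, abdominal, dorsal and virgin arrays, a range of 1.90-fold, in the same order of arrays as Sox10. The dimmer (1422025_at) stood out on the dorsal array alone, with signals of 156, 164, 531 and 152, so that the abdominal array was 3.25-fold lower than the dorsal array and 1.07-fold higher than the virgin array. The annotation ties the probe sets to different transcript records, but the sources used here do not say which Mitf isoforms each of them measures.

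No receptor was past 2-fold in any of the 4 comparisons. Kit, the receptor for stem cell factor (1452514_a_at), had signals of 148 on the PP2 array, 177 on the abdominal array, 102 on the dorsal array, where it was absent, and 217 on the virgin array. Its other probe set was absent on all 4 arrays. Ednrb was present by all 3 of its probe sets on every array. The brightest (1437347_at) had signals of 795, 714, 547 and 824 on the PP2, abdominal, dorsal and virgin arrays, a range of 1.51-fold, whereas the others were highest on the abdominal array, at 213, 340.5, 233 and 295 and at 67.5, 124, 78.1 and 89.4. On the PP2 array Ednrb was thus 1.11-fold higher than on the abdominal array by the first and 1.60-fold and 1.83-fold lower by the others. Mc1r, the melanocortin receptor (1435393_at), had signals of 75.3, 82.4, 99.1 and 80.6, a range of 1.32-fold, and a second probe set that was absent throughout.

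The comparison of pregnant with virgin abdominal dermis, both with DMSO, sets 1 array against 1 array. Of the 10 melanocyte genes 9 were detected on at least 1 of both arrays. On the abdominal array 3 of them, Tyr, Tyrp1 and Pmel, were over 2-fold higher and 0 were lower. Of the 12744 genes detected in this comparison 3.41% were higher and 3.55% lower by the same criterion. None of the 3 had a present call on the virgin array for the probe set concerned, and the largest bound among them was 2.18-fold. The second probe set of Tyr went the other way, Pmel had a single probe set, and all 3 of Tyrp1 gave a higher signal, by 1.98-fold or more. The call of Tyr was lost with a floor of 50 on the signals and with the median over detected probe sets, and that of Tyrp1 without x_at probe sets. Of the pigment group only Dct had a representative present on both arrays, with a log2 ratio of 0.65, and the 5 regulators, all present on both, ranged from -0.29 to 0.62 with a median of 0.03, beside 0.02 over all genes. The median of the 4 detected pigment genes, 1.06, rests on 3 ratios that are bounds. Tyr, Tyrp1 and Pmel were each counted through the present call on the abdominal array alone, so that the median is given only as a description. As controls of RNA quality, the 3′ to 5′ ratio was 1.41 on the abdominal array and 2.51 on the virgin array for Gapdh, and 2.03 and 2.64 for β-actin. The 5′ control for 18S gave 12257 and 9632, and the part of these controls in the ratios was not tested.

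The comparison of PP2 with DMSO in abdominal dermis of 15 dpc mice also sets 1 array against 1 array. Of 9 detected melanocyte genes 0 were over 2-fold higher on the PP2 array and 1, Pmel, was lower. With quantile normalization Pmel was not past 2-fold, and Sox10 was past 2-fold as well once the present signals of all arrays had been brought to one median. Of 12955 genes 3.74% were higher and 4.89% lower, and of the genes past 2-fold 43.3% were higher, a share of 54.3% with one median and of 59.1% with quantile normalization. The median log2 ratio was -0.74 (-1.19 to 0.25) for the 4 genes of the pigment group, -0.59 without Pmel, which was absent on the PP2 array, and 0.16 (-0.26 to 0.99) for the 5 of the regulator group, beside 0.00 over all genes. Dct, Tyr and Pmel had negative log2 ratios and Tyrp1, Mitf and Sox10 positive ones by their representative probe sets. The difference between the group medians was -0.89, and it was -0.04 when each gene was given the median of its detected probe sets. Controls of RNA quality differed between these arrays. For Gapdh the 3′ control signal was 5.84 times the 5′ one on the PP2 array, against 1.41 times on the abdominal array and up to 2.97 times on the other DMSO arrays. For β-actin the ratio was 2.70 on the PP2 array, 2.03 on the abdominal array, 4.14 on the dorsal array and 2.64 on the virgin array, so that it set the dorsal array apart and not the PP2 array. Ribosomal RNA, by its 5′ control for 18S, gave 256 on the PP2 array, against 12257 on the abdominal array. Their part in these ratios was not tested.

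The PP2 array was also set against the virgin array, which leaves pregnancy and PP2 joined in one difference and shares both arrays with the comparisons above. Of 8 detected melanocyte genes 2, Tyrp1 and Sox10, were over 2-fold higher on the PP2 array and 0 were lower, whereas 3.27% of 12893 genes were higher and 4.34% lower. By its second probe set (1424985_a_at) Sox10 was 1.59-fold higher. Dct was 1.04-fold higher on the PP2 than on the virgin array. Pmel was absent on both. The share of genes past 2-fold that were higher was 43.0%, and 62.5% with one median and 67.1% with quantile normalization. The 3′ to 5′ ratio was 5.84 on the PP2 array and 2.51 on the virgin array for Gapdh, and 2.70 and 2.64 for β-actin. The 5′ control for 18S gave 256 and 9632, and the part of these controls in the ratios was not tested.

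The comparison of abdominal with dorsal dermis of 15 dpc mice had both the highest and the lowest log2 ratio among representative probe sets present on both arrays. It shares the abdominal array with the comparisons to virgin dermis and to PP2. Of 9 detected, Tyr, Dct and Pmel were over 2-fold higher on the abdominal array and Sox10 was over 2-fold lower. Of 12808 genes 5.25% were higher and 4.96% lower. The call of Tyr was lost with a floor of 50 and with the median over detected probe sets. Of the pigment group Dct and Tyrp1 had representatives present on both arrays, with log2 ratios of 1.93 and -0.83, and the 4 regulators present on both had a median of -0.42, beside 0.04 over all genes. With the bounds of Tyr and Pmel, both counted through their present call on the abdominal array alone, the median of the pigment group was 1.52, again a description. The split did not follow the groups strictly, since Tyrp1, an enzyme, was lower on the abdominal array by its brighter probe sets, and Ednrb, a regulator, was higher by all 3, at 1.30-fold, 1.46-fold and 1.58-fold. The dimmer probe set of Mitf was lower by 3.25-fold. The 3′ to 5′ ratio was 1.41 on the abdominal array and 2.97 on the dorsal array for Gapdh, and 2.03 and 4.14 for β-actin, and their part in these ratios was not tested.

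**Figure D2:**
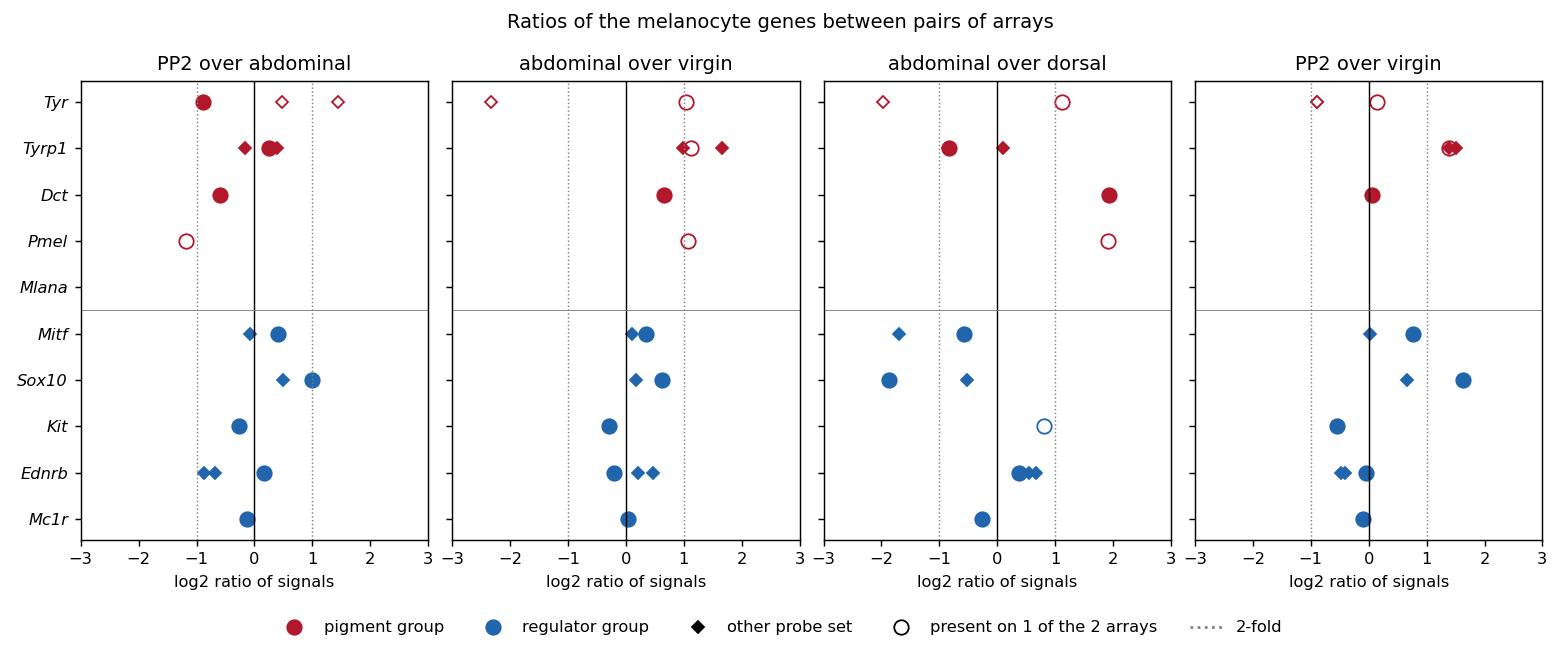
Log2 ratio of signals for each melanocyte gene in 4 comparisons of single arrays, first array over second. Large circles are representative probe sets, small diamonds other probe sets, open symbols those present on 1 of the 2 arrays, and dotted lines mark 2-fold; probe sets absent on both arrays are left out. Sox10 lies at -1.87 and Dct at 1.93 for the abdominal over the dorsal array, and the probe sets of Tyr fall on both sides of 0.

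Genes of the growing hair, which melanocytes of the follicle serve, had their highest signals on the abdominal array, as Dct and Pmel had. Of 20 follicle genes, 18 were present on the abdominal array, against 11 on the PP2 array, 5 on the dorsal array and 5 on the virgin array, and Dlx3 was present on 0. Set against the virgin array, 17 of 18 detected were over 2-fold higher on the abdominal array, the ratios of 13 being bounds, and set against the dorsal array 16 of 18, with 13 bounds. The hair keratin genes Krt33a and Krt34 and the keratin associated gene Krtap11-1 exceeded the virgin array by at least 232-fold, at least 150.1-fold and at least 129-fold, and Krt25 by 180.0-fold. Against the dorsal array Krtap11-1, Krt33a, Krt35 and Krt33b were at least 211-fold, at least 94.3-fold, at least 64.8-fold and at least 52.5-fold higher. With PP2, 16 of 19 were over 2-fold lower than on the abdominal array, 8 of the ratios being bounds, among them Krt34 (at least 35.5-fold), Krt86 (at least 31.1-fold) and Krt33b (at least 29.4-fold), with Krtap11-1 lower by 28.2-fold. Of the genes present on both arrays, 5 of 5 were higher against the virgin array (median log2 ratio 2.76), 4 of 5 were higher against the dorsal array (3.06), and 9 of 10 were lower with PP2 (-2.52). Against the virgin array 7 of 11 were higher with PP2, Krt33a by at least 10.5-fold, Krt25 by 32.4-fold, Krt27 by at least 5.17-fold and Krtap8-1 by at least 4.75-fold. Of all genes, 3.41% were higher on the abdominal than on the virgin array and 5.25% higher than on the dorsal array. With PP2, 4.89% of all genes were lower than on the abdominal array and 3.27% higher than on the virgin array. Krt25, an inner root sheath keratin, had signals of 635, 3524, 70.4 and 19.6 on the PP2, abdominal, dorsal and virgin arrays. It shared with Dct the highest place on the abdominal array, but its lowest signal was that of the virgin array and not of the dorsal one. The summed signal of the list was 3542 on the PP2 array, 32879 on the abdominal array, 2172 on the dorsal array and 1430.2 on the virgin array. Bright probe sets weigh most in such a sum, and Krtap8-1 alone gave 10723 on the abdominal array. The part of hair growth in the ratios of Dct, Pmel and Tyr was not tested.

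Several genes of Schwann cells, which also use Sox10, stood higher on the dorsal and PP2 arrays. Of all genes, 4.96% were over 2-fold lower on the abdominal than on the dorsal array. For PP2 over abdominal 3.74% were higher and 4.89% lower. Shares higher were 3.27% for PP2 over virgin and 3.41% for abdominal over virgin. All 11 Schwann cell genes measured were present on all 4 arrays. On the abdominal array 4 of 11 were over 2-fold lower than on the dorsal array: Sox2, a transcription factor of immature Schwann cells, by 6.90-fold, the cadherin Cdh19 by 4.10-fold, S100b by 2.82-fold and the neurotrophin receptor Ngfr by 2.54-fold. The median log2 ratio of the list was -0.74. On the PP2 array 3 were over 2-fold higher than on the abdominal array, Sox2 by 4.61-fold, Cdh19 by 3.57-fold and S100b by 2.37-fold, and 0 were lower. The median was 0.37, and with either other scaling Gfra3 was higher as well. Against the virgin array, Cdh19 was 5.55-fold, Sox2 2.92-fold and S100b 2.26-fold higher on the PP2 array, and the myelin protein gene Mal was 2.15-fold higher on the abdominal array. The myelin genes Mbp and Pmp22 did not follow, and neither did Mal and Ncmap. For abdominal over dorsal, Mal, Ncmap, Egr2, Pmp22 and Mbp had positive log2 ratios, of 0.83, 0.74, 0.48, 0.11 and 0.08. Erbb3 and Gfra3 were negative there, at -0.74 and -0.94. For PP2 over abdominal, Ncmap, Mbp, Pmp22 and Mal had log2 ratios of -0.56, -0.53, -0.21 and -0.13. The other genes of the list, Egr2 among them (0.64), had positive ones. Mbp had signals of 18580.0, 26896, 25472 and 27387 on the PP2, abdominal, dorsal and virgin arrays, and the summed signal of the list, to which it contributed most, ranged over the arrays from 61400.4 to 71814. The part of Schwann cells in the ratios of Sox10 was not tested.

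**Figure D3:**
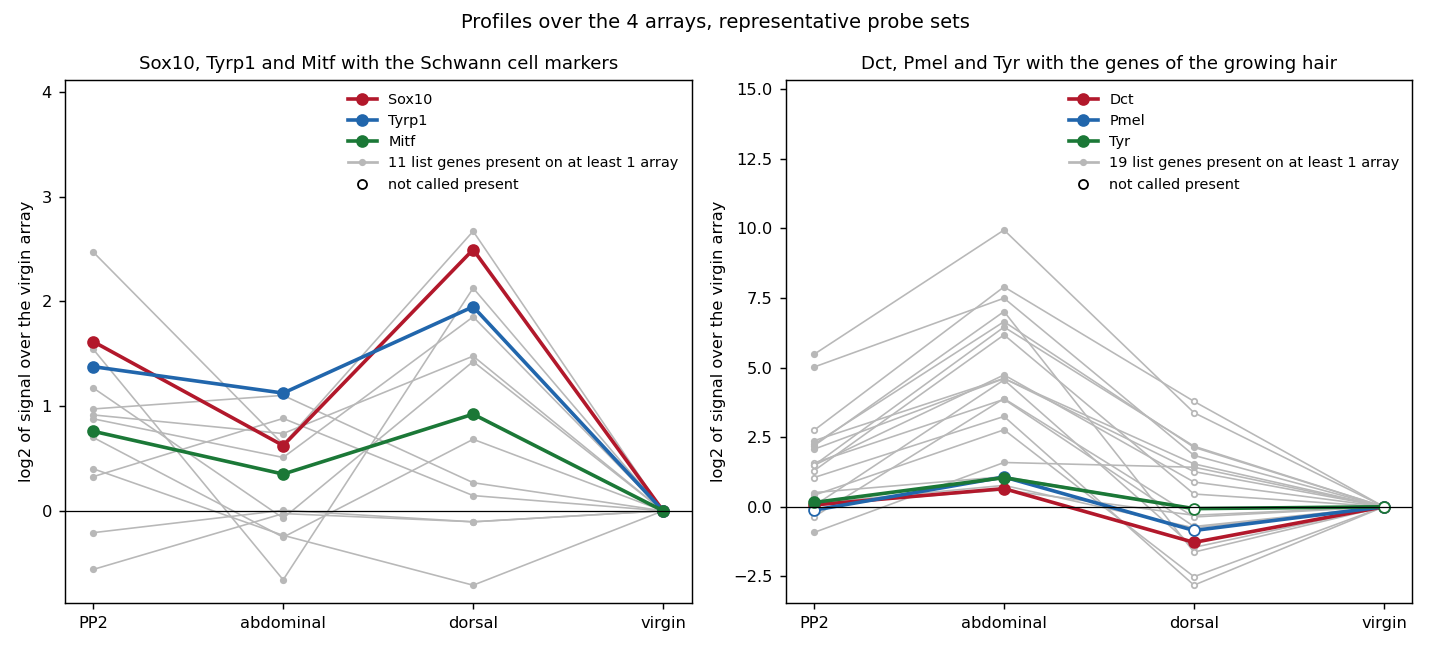
Log2 of the signal over that of the virgin array, for Sox10, Tyrp1 and Mitf with 11 Schwann cell markers (left) and for Dct, Pmel and Tyr with 19 genes of the growing hair (right), on the PP2, abdominal, dorsal and virgin arrays; representative probe sets, open symbols not called present. By these probe sets Sox10, Tyrp1 and Mitf are highest on the dorsal array, and Dct, Pmel and Tyr on the abdominal array, where all 19 hair genes are highest too. The second probe set of Tyr was lowest on the abdominal array (10.7), and the third of Tyrp1 was highest there (389). Members were placed in the panels with their values known, so a shared peak is not a test. Ratios at open symbols are to or from signals not called present.

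By representative probe sets, Pax3, Tfap2b, Sox9 and Sox5 had the order of arrays of Sox10. They are among the transcription factors that act with Mitf and Sox10 in the neural crest lineage. Pax3, which activates Mitf together with Sox10, had signals of 735, 328, 1297 and 277 on the PP2, abdominal, dorsal and virgin arrays, all present. It was 2.24-fold higher on the PP2 than on the abdominal array and 3.95-fold lower on the abdominal than on the dorsal array, and its other pair of probe sets went the same way, by at least 3.36-fold and 3.27-fold and by at least 5.67-fold and 5.76-fold. Of all genes, 4.96% were over 2-fold lower on the abdominal than on the dorsal array and 5.25% higher. Of 11 detected factors of the list, 4 were over 2-fold lower in this comparison and 0 were higher. Besides Pax3 these were the Wnt effector Lef1 (2.50-fold), Zeb2 (2.25-fold) and Foxd3, a neural crest factor (2.02-fold). The median log2 ratio of the list was -0.50, and Foxd3 was not past 2-fold with either other scaling. On the PP2 array Pax3 and Lef1 were over 2-fold higher than on the abdominal array, Lef1 by 2.80-fold, 0 were lower, and the median was 0.44. Of all genes 3.74% were higher and 4.89% lower in that comparison. Between the abdominal and the virgin array, 0 of 11 detected factors were past 2-fold in either direction by representative probe sets as deposited. Of all genes 3.41% were higher and 3.55% lower there. Sox5 was higher with either other scaling, Lef1 was lower with quantile normalization, and the dimmer probe set of Lef1 and 1 of those of Zeb2 were 2.27-fold and 2.08-fold lower. Against the virgin array, Pax3 was 2.66-fold and Sox5 2.49-fold higher on the PP2 array, where 3.27% of all genes were higher.

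Of 23 measured genes of melanosome transport and ion channels, 18 were present on at least 1 array. Past 2-fold, 1 of 18 detected was higher and 2 were lower for PP2 over abdominal, beside 3.74% and 4.89% of all genes. For abdominal over virgin the counts were 1 and 0 of 18 (3.41% and 3.55% of all genes). They were 0 and 1 of 18 for abdominal over dorsal (5.25% and 4.96%), and 1 and 1 of 17 for PP2 over virgin (3.27% and 4.34%). The median log2 ratio of the list was 0.06 for PP2 over abdominal, 0.16 for abdominal over virgin and 0.00 for abdominal over dorsal. Slc45a2 and Trpm1, which are largely restricted to pigment cells, were present on 0 arrays. Oca2, the melanosomal channel protein, had signals of 42.5, 36.3, 42.3 and 50.6 on the PP2, abdominal, dorsal and virgin arrays, with no present call on the PP2 array. Mlph, which encodes melanophilin and links melanosomes to the motor myosin Va, had signals of 254, 101, 519 and 131, marginal on the virgin array. It was 2.50-fold higher on the PP2 than on the abdominal array and 5.12-fold lower on the abdominal than on the dorsal array. Rab27a, the small GTPase that recruits melanophilin, had signals of 39.0, 569, 742 and 446. It stood apart on the PP2 array alone, where it was 14.6-fold lower than on the abdominal array and 11.4-fold lower than on the virgin array, and a much dimmer probe set was lower by at least 4.52-fold and at least 3.88-fold. Gpnmb, a glycoprotein related to Pmel that macrophages also make, was 2.04-fold lower on the PP2 than on the abdominal array, but not past 2-fold with one median. Mreg, which encodes melanoregulin, was 2.01-fold higher on the abdominal and 2.10-fold higher on the PP2 array than on the virgin array, and past 2-fold on neither with quantile normalization.

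Ligands of the receptors were measured as well. Kitl, which encodes stem cell factor, had signals of 5728, 7614, 4857 and 6333 on the PP2, abdominal, dorsal and virgin arrays, and Edn3, an endothelin that acts on melanocyte precursors through Ednrb, 227, 279, 478 and 397. Of 10 measured ligands and modifiers 9 were present on at least 1 array, and 1 was past 2-fold in the 4 comparisons. Corin, a protease that modifies agouti signalling in mouse skin, was at least 2.86-fold higher on the abdominal than on the virgin array. By the same criterion 3.41% of all genes were higher in that comparison.

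Markers of mast cells, which also use Kit and Mitf, were mostly below detection. Of 10 measured, 7 were present on 0 arrays, among them Fcer1a and Ms4a2 of the IgE receptor, and Gata2, which other cells also express, was the one present throughout. The proteases Cpa3 and Cma1 were present on the PP2 array only, and there at least 3.21-fold and at least 2.56-fold higher than on the abdominal array. Cpa3 also exceeded its signal in virgin dermis by at least 2.46-fold. Kit was at 148 on the PP2 array, against 177 on the abdominal array. Between the same arrays Mitf was 1.33-fold higher with PP2 by its brighter probe set and 1.05-fold lower by its dimmer one. By the same criterion, 3.74% of all genes were higher and 4.89% lower for PP2 over abdominal, and 3.27% and 4.34% for PP2 over virgin. The shares were 3.41% and 3.55% for abdominal over virgin, and 5.25% and 4.96% for abdominal over dorsal. All 10 endothelial markers, whose cells use Ednrb, were present on all arrays. On the PP2 array 2 of 10 endothelial markers were over 2-fold lower than on the abdominal array, Tie1 by 3.72-fold and Pecam1 by 3.30-fold. In that comparison 0 were higher, and the median log2 ratio was -0.36. Vwf, Emcn, Esam and Cdh5 had log2 ratios of 0.17, 0.00, -0.04 and -0.23. Against the virgin array 3 of 10 were lower with PP2, Tie1 by 3.31-fold, Kdr by 2.27-fold and Pecam1 by 2.26-fold, and 0 of 10 were past 2-fold between the abdominal array and the virgin or the dorsal array. Genes of epidermal keratinocytes, to which melanocytes pass their pigment, had a summed signal of 57088 on the PP2 array, 96968 on the abdominal array, 127653 on the dorsal array and 75701 on the virgin array. On the abdominal array 3 of 11 were over 2-fold lower than on the dorsal array and 0 were higher (median log2 ratio -0.53). These were the cornified envelope gene Lor (34.8-fold), the filaggrin gene Flg (14.5-fold) and the keratin gene Krt2 (at least 10.8-fold), whereas Krt14, Trp63 and Cdh1 had log2 ratios of 0.19, 0.36 and 0.02. With PP2, 2 of 11 were lower than on the abdominal array and 0 were higher (-0.68), Krt1 by 2.26-fold and Krt5 by 2.09-fold. With one median Krt5 was no longer past 2-fold, and Krt2, at least 1.94-fold higher as deposited, was past it with either other scaling. Trp63 was just past 2-fold higher on the abdominal than on the virgin array, but not past 2-fold with quantile normalization, and Krt2 and Flg were at least 6.67-fold and at least 2.08-fold higher on the PP2 than on the virgin array. Of the 8 fibroblast genes, Pdgfra (2.50-fold) and Thy1 (2.01-fold) were higher with PP2 than on the abdominal array. The median log2 ratio was -0.24, and Col1a1, Col1a2, Col3a1, Vim and Dcn had ratios of -0.80, -0.36, -0.26, -0.25 and -0.23. Col1a1 was 2.38-fold higher on the abdominal than on the virgin array (median -0.36). Lum (4.52-fold) and Col1a1 (3.45-fold) were higher on the abdominal than on the dorsal array (median 0.22). There Thy1, Vim and Pdgfra had log2 ratios of -0.59, -0.51 and -0.36. The part of these cell types in the ratios of the melanocyte genes was not tested.

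Genes with profiles like those of members were sought among the 12251 genes present on the abdominal array, by the root mean square difference of centred log2 signals over the 4 arrays. Nearest to the mean of Tyr, Tyrp1 and Dct were Fbln5, Chrdl1, 4930486L24Rik, Esrp2 and Ankrd22, at differences of 0.022 to 0.049. That mean takes in signals of Tyr on the dorsal and virgin arrays and of Tyrp1 on the virgin array that were not called present, and since the 3 enzymes differed among themselves it is the profile of none of them. Searches for single members were added after the values were seen. Nearest to Sox10 were Pdzrn4 (0.055), Frem2, Pdk4, Pax3 (0.137) and Abca8b. Nearest to Tyrp1 was Zbtb7c (0.065), with the neural adhesion gene Chl1 next at 0.101, and nearest to Dct was Abhd15 (0.037), with Myl9, a smooth muscle myosin light chain, also among the 5 nearest, at 0.099.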

How the data were processed

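Gene expression was measured with Affymetrix Mouse430_2 arrays, 1 for each of 4 conditions. The deposited values are MAS5 signals, intensities on a linear scale that the authors obtained with Affymetrix Expression Console (version 1 in the submitters' processing notes) and detection calls. Other values, the calls present, marginal and absent, were taken as deposited. The deposited table of all arrays differed from the single arrays for 0 probe sets. No genome build is given for the arrays, and RefSeq sequences are those of GRCm38.p6.

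Symbols came from the platform's annotation, a single one for 34958 of 45101 probe sets. Entrez identifiers of 34754 matched the RefSeq gene table, which changed 0 symbols. Each gene is given by the probe set whose log2 signal had the highest mean over the arrays. Ratios above 2 with a present call on the brighter array were counted, and medians were taken over genes present on at least 1 of both arrays. With 1 array per condition no test was run. Python 3.11.15, numpy 2.4.6, pandas 2.3.3 and matplotlib 3.10.9 were used. Counting was tested on simulated data. Alternatives were 2 other scalings, other probe set choices, no detection filter, a floor of 50, genes present on both arrays only, and 1.5-fold and 3-fold thresholds. All 10 members are named with every probe set, and from each list the members past 2-fold, up to 4 for each comparison. The members, lists and alternatives were chosen with earlier results of these data known. Value columns without a sample numbered 0.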

Additional observations from a re-analysis of the deposited data

How the results depend on the processing

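Of 156 summary values under an alternative 128 stayed within 1.5 times the count or within the spread between probe sets of one gene, an SD on the log2 scale of 0.34 to 0.60, and 28 moved further. For PP2 over abdominal, the count of higher genes was 0, and 1 with one median (Sox10), at 1.5-fold and with every detected probe set counted. The count of lower genes was 1, and 0 with quantile normalization, at 3-fold and over genes present on both arrays only, 2 with no detection filter and 3 at 1.5-fold. The difference of the pigment and regulator medians, -0.89, was -0.04 with the median over detected probe sets. For abdominal over virgin, 3 genes were higher, 5 at 1.5-fold, 0 at 3-fold, 0 over genes present on both arrays, and 2 with a floor of 50 (Tyr 0.70), without s_at and x_at probe sets (Tyrp1 0.99) and with the median over detected probe sets, and 0 were lower, 1 with every probe set counted. With the median over detected probe sets the median of the members, 0.62, was 0.23 and the difference of the group medians, 1.03, was 0.65, and over genes present on both arrays they were 0.19 and 0.62. For abdominal over dorsal, 3 genes were higher, 2 at 3-fold, with a floor of 50 (Tyr 0.70) and with the median over probe sets, and 1 over genes present on both arrays. There 1 gene was lower, 2 at 1.5-fold, 2 with the median over probe sets and 3 with every probe set counted. The median of the members, 0.38, was -0.27 with the median over probe sets and -0.42 over genes present on both arrays, and the difference of the group medians, 1.78, was 1.01 and 0.97. For PP2 over virgin, 2 genes were higher, 1 at 3-fold and over genes present on both arrays, and 4 with every probe set counted. Tyr changed sign with the median over its detected probe sets, to -0.64 for abdominal over virgin and to -0.44 for abdominal over dorsal; both of these take in a probe set that opposes the brightest one. Of 210 ratios of single genes 199 moved by less than the spread between probe sets. Many of them could hardly move. Scaling to one median shifts all genes of a comparison alike, and by less than that spread. The 3 genes with a single probe set keep it under any choice of probe set. This count is therefore no measure of how robust the ratios are. The choice of representative without the PP2 array, the count of every probe set and the restriction to genes present on both arrays were added after seeing the data.

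With the arrays brought to one median of present signals, the log2 ratios of all genes had a median of 0.11 for PP2 over abdominal and for abdominal over dorsal and of 0.17 for PP2 over virgin. The sign of Mc1r for PP2 over abdominal and over virgin (0.18 and 0.33 with quantile normalization) and that of Ednrb for PP2 over virgin (0.10 with one median) depended on the scaling, as did that of the regulator median for PP2 over virgin, -0.05 as deposited and 0.33 with quantile normalization. The median of the members for PP2 over abdominal was -0.13 as deposited and 0.18 with quantile normalization. No paired analysis was possible because each condition had 1 array, and no array could be left out of a comparison for the same reason. Tyr, Pmel and Mlana lay too near the limit of detection for a small difference to be read.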
